A study of Mus musculus with 9 samples.

Results

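Major histocompatibility complex class II molecules present peptides from engulfed proteins to CD4+ T cells. H2-Aa and H2-Ab1 encode the chains of the I-A heterodimer and H2-Eb1 the beta chain of I-E, whose alpha chain is not made in C57BL/6 mice. Cd74, the invariant chain, blocks the peptide groove and steers new class II molecules to endosomes, where cathepsins degrade it. H2-DM (H2-DMa paired with H2-DMb1 or H2-DMb2) then loads peptides, and H2-O (H2-Oa paired with H2-Ob) restrains H2-DM. Ciita is the co-activator that switches on class II promoters. Dendritic cells and B cells keep this pathway on, whereas resting microglia hold it low and can switch it on under interferon gamma.

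The 9 genes described here were taken by symbol from the 31053 genes of the deposited tables, and all 9 were found: H2-Aa (ENSMUSG00000036594), H2-Ab1 (ENSMUSG00000073421), H2-Eb1 (ENSMUSG00000060586), Cd74 (ENSMUSG00000024610), H2-DMa (ENSMUSG00000037649), H2-DMb1 (ENSMUSG00000079547), H2-DMb2 (ENSMUSG00000037548), H2-Oa (ENSMUSG00000024334) and Ciita (ENSMUSG00000022504). Their transcripts were counted in CD11b+ cells sorted from whole mouse brain without cerebellum, with droplet-based sequencing of the 3′ end of mRNA. A unique molecular identifier (UMI) marks 1 captured molecule, whatever the length of its transcript. All mice were female C57BL/6 (C57BL/6J in the methods of the study) aged 5 months. Ctrl mice received no treatment, D0 mice received the CSF1R inhibitor PLX5622 in the diet at 1200 mg/kg for 14 days, and D2 mice received the same diet for 14 days and then control diet for 2 days. Each Ctrl library held 1 brain and each D0 or D2 library 2 pooled brains, so that the library was the replicate (n = 3 Ctrl, 3 D0 and 3 D2). Tests between groups used 3 Ctrl, 3 D0 and 2 D2 libraries.

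Library D2-3, which the study left out, stood apart: 37.3% of its barcodes exceeded the limit of 20000 UMIs, against 1.20 to 24.2% in the other 8 libraries. D2-3 was therefore left out of the tests given here, except in alternatives that name it, and its values are given separately. The 8 libraries held 28655 cells within the limits of the study (2418 to 4980 per library, with medians of 4810 to 9243 UMIs per cell), and no pair of libraries shared more than 7 barcodes. Cells were clustered without the class II genes and clusters were named from marker genes. Dendritic cell-like cells had 10 of 13 dendritic cell markers raised and were led by Cd209a, Mgl2, Tnip3, Clec10a and Napsa. Clusters with marker sets of more than 1 immune class at similar strength were kept apart as mixed. A further 2511 cells lay in clusters that were left unnamed. An unnamed cluster of 113 cells was led by Napsa, Cd209a, S100a4 and Clec4b1, and a mixed cluster of 27 cells by Ccl5, Ccr7, Il12b, Ccl22 and Ccl17. The dendritic cell-like counts, shares and contributions leave these cells out and may be incomplete.

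Class II promoters carry shared elements, the X box, bound by the RFX complex, and the Y box, an inverted CCAAT element bound by NF-Y, on which CIITA assembles. The promoter stretches below are given because they show which of these 9 genes carry the letters of 1 or both elements near the start site. Among the 6 of the 9 genes with an entry in the RefSeq promoter table for GRCm38.p6 (H2-Aa, H2-Eb1, H2-DMa, H2-DMb1, H2-DMb2 and H2-Oa), the Y core TGATTGG was found on either strand in 5 (all but H2-DMa; 4 are printed), compared with 7.82% of 32851 promoters of the same length. The X half-site ACNGATGA was found in 4 of the 6, compared with 2.55% of promoters. It lay 27 bases from the Y core in H2-Eb1, 28 in H2-DMb1 and H2-DMb2, but 92 in H2-Oa, which is not printed. Each line reads 5′ to 3′ along the strand of the gene, with capitals for the Y core and, where it falls inside the 60 bases, the X half-site; the 4 stretches lie at chr17:34287859-34287918 (H2-Aa, minus strand), chr17:34305761-34305820 (H2-Eb1, plus strand), chr17:34153083-34153142 (H2-DMb1, plus strand) and chr17:34145112-34145171 (H2-DMb2, plus strand).
H2-Aa: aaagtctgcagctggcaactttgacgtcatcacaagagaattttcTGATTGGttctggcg
H2-Eb1: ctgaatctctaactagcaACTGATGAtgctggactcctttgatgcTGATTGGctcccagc
H2-DMb1: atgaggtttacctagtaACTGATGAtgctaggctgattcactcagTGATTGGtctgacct
H2-DMb2: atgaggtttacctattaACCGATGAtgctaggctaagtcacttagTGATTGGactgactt
The Y core began 50 bases (H2-Aa), 61 bases (H2-Eb1), 63 bases (H2-DMb1) and 92 bases (H2-DMb2) upstream of the annotated start. The H2-DMb1 and H2-DMb2 stretches were identical at 53 of 60 bases. The transcripts of these neighbouring genes also shared 25.2 to 27.2% of their 50-base words, but only 0 to 7.43% within the last 350 positions, nearest the 3′ end, and whether UMIs were split wrongly between them was not tested. A match of letters is a description and not a bound site.

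Dendritic cell-like cells held the highest level of each of the 9 genes. There, taken over the 5 D0 and D2 libraries with at least 20 such cells, Cd74 made up 30783 to 42251 UMIs of every 1000000 UMIs of these cells (counts per 1000000, CPM, median 39904). H2-Aa had a median of 12904, H2-Ab1 12446 and H2-Eb1 11314 CPM. The loading and editing genes were lower, with medians of 1209 (H2-DMa), 1201 (H2-DMb1), 232 (H2-DMb2) and 234 (H2-Oa) CPM. Ciita had a median of 173 CPM.

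The chains and Cd74 fell steeply from cell type to cell type. For H2-Aa, the median over libraries with at least 20 cells was 9189 CPM in mixed clusters, 2486 in border-associated macrophage-like cells, 984 in monocyte-like cells and 14.4 in microglia-like cells. The ranges over libraries did not overlap between the first 3 types in this order (11009 to 14673 in dendritic cell-like cells, 5452 to 10955 in mixed clusters, 1699 to 2733 in border-associated macrophage-like cells), and the last of these overlapped that of monocyte-like cells (416 to 1779). This order compares different groups, since the libraries with 20 cells were all D0 or D2 for dendritic cell-like cells, all Ctrl for border-associated macrophage-like cells and of all 3 groups for mixed clusters. In the D0 libraries, with 3 to 6 border-associated macrophage-like cells each, H2-Aa stood in these cells at 2292 to 6075 CPM, a range that overlapped that of mixed clusters. The values in microglia-like cells (5.68 to 27.5) overlapped those in neutrophil-like (2.56 to 100.9) and endothelial-like cells (0 to 147), so that these 3 types did not differ beyond their spread.

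H2-DMa, H2-DMb1 and H2-Oa followed another order, with clear levels in microglia-like cells. H2-DMa stood at a median of 252 CPM in microglia-like cells (190 to 302), beside 291 in monocyte-like cells (240 to 395) and 312 in border-associated macrophage-like cells (303 to 359), and at 33.3 in neutrophil-like and 23.1 in endothelial-like cells. H2-DMb1 had a median of 131 in microglia-like cells and 162 in monocyte-like cells, with ranges that overlapped. H2-Oa, the chain of the H2-DM antagonist, reached 53.4 CPM in microglia-like cells (45.6 to 55.1), above border-associated macrophage-like cells (17.5 to 28.1) and monocyte-like cells (0 to 8.96) in every library compared. H2-DMb2 had a median of 5.01 CPM in microglia-like cells, beside 5.12 in neutrophil-like cells. Ciita had medians of 21.5 CPM in border-associated macrophage-like and 19.0 in monocyte-like cells, but of 0.131 in microglia-like cells.

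**Figure D1:**
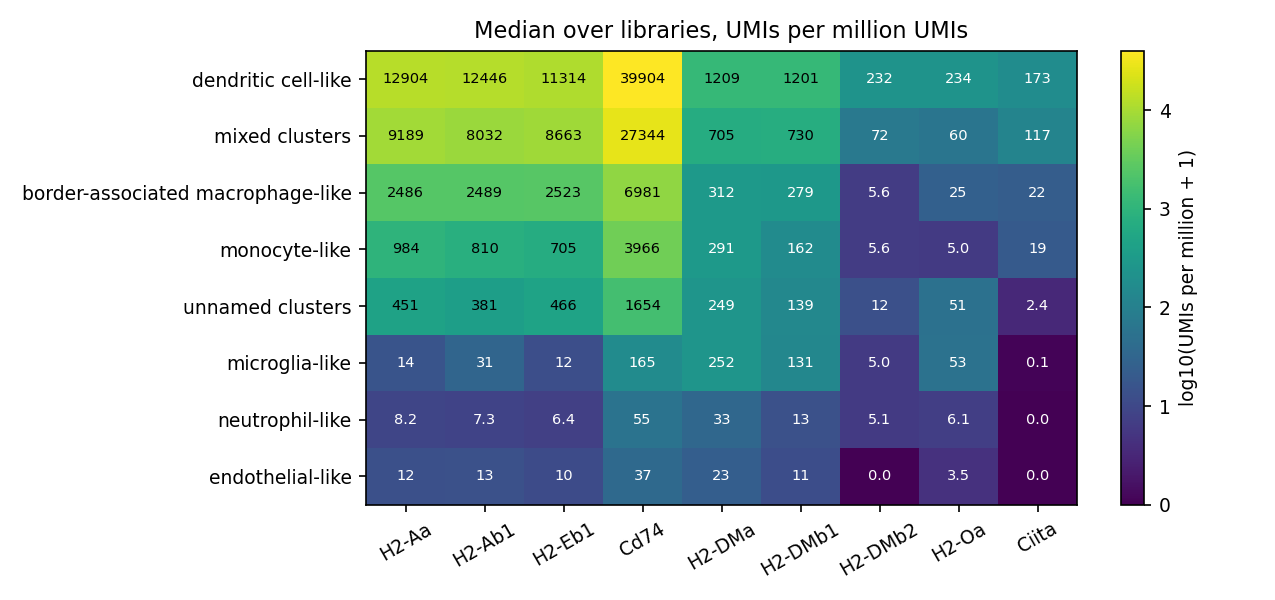
Median over libraries with at least 20 cells of a type (8 libraries, without D2-3) of each gene's CPM of that cell type; columns are genes, rows are cell types, and the colour is log10 of the value plus 1. Chains and Cd74 drop from 12904 (H2-Aa, dendritic cell-like) to 14 (microglia-like), whereas H2-DMa drops from 1209 to 252.

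The 3 chains and Cd74 were counted mostly outside microglia in every group. In Ctrl, dendritic cell-like cells held 29.4% of the H2-Aa UMIs (21.9 to 38.4% over libraries), mixed clusters 34.7%, border-associated macrophage-like cells 19.9% and microglia-like cells 4.88%. In D0, the dendritic cell-like part was 68.2% (62.0 to 73.3%) and in D2 67.1%, and the border-associated macrophage-like part was 1.05% and 0.478%. Microglia-like cells held 7.75% of Cd74 UMIs in Ctrl, 10.5% in D0 and 12.5% in D2. By contrast, they held most H2-DMa UMIs (85.8% in Ctrl, 78.0% in D0, 74.9% in D2) and most H2-Oa UMIs (92.5%, 79.9% and 77.1%).

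**Figure D2:**
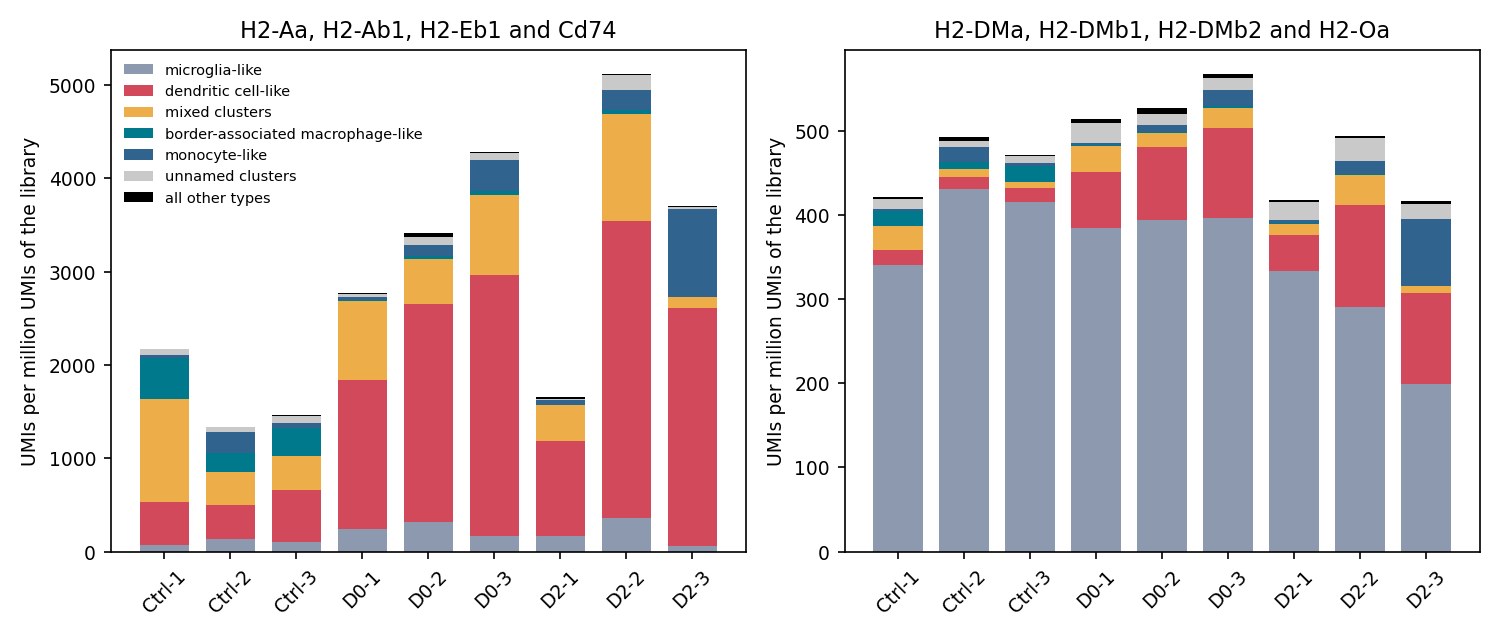
CPM of the library, stacked by the cell type that held them, for each of the 9 libraries, with the chains and Cd74 on the left and the H2-DM and H2-O genes on the right. Dendritic cell-like cells fill most of the D0 and D2 bars on the left, while microglia-like cells fill most of each bar on the right except in D2-3.

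Over all kept cells, the chains and Cd74 were higher in D0 than in Ctrl in each library. Cd74 stood at 1098, 697 and 754 CPM in Ctrl-1, Ctrl-2 and Ctrl-3, at 1505, 1846 and 2253 in D0-1, D0-2 and D0-3, at 872 and 2892 in D2-1 and D2-2, and at 2091 in D2-3. H2-Aa stood at 361, 219 and 243 in Ctrl, 435, 570 and 723 in D0, 265 and 832 in D2, and 573 in D2-3. Ctrl and D0 did not overlap for either gene, and D2-1 lay within the Ctrl range while D2-2 was the highest of the 8.

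The test of these sums (edgeR, 14310 genes, D0 against Ctrl) gave log2 fold changes of 1.28 (SE 0.40, adjusted p = 0.0618) for Cd74 and of 1.21 for H2-Aa, 1.14 for H2-Ab1 and 1.06 for H2-Eb1 (edgeR adjusted p = 0.0722, 0.0541 and 0.0906), all of which missed the threshold of 0.05. Of the 9 genes, 1 was called, where 8.15% of all genes tested were called raised: H2-DMa rose by 0.50 on the log2 scale (SE 0.14, edgeR adjusted p = 0.0465), with 206 to 258 CPM in Ctrl and 297 to 317 in D0. With the replicate number as a block, 2 were called, H2-DMa and H2-DMb2, where 1670 of 14310 genes were called raised. DESeq2 called 7 of the 9, where it called 1918 of 14310 genes raised. Leaving out 1 library gave 0 to 5 calls, the 5 without D2-1 or D2-2 (the chains, Cd74 and H2-DMb2), and H2-DMa was in none of them. Over all genes, the fits without 1 library called 545 of 14138 (without Ctrl-3) to 1269 of 14284 (without D0-1) raised. In the test as reported, H2-DMb2 (0.87, edgeR adjusted p = 0.0667) and Ciita (0.98, edgeR adjusted p = 0.0845) also missed the threshold, and H2-DMb1 differed by 0.08 (edgeR adjusted p = 0.756).

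In D2 against Ctrl, edgeR called 0 of the 9 genes, where it called 7.47% of all genes raised. Of the 9, 4 had an unadjusted p under 0.05. DESeq2 called 3 of the 9, where it called 1578 of 14310 genes raised. Cd74 had a log2 fold change of 1.20 (SE 0.43, edgeR adjusted p = 0.0948) and H2-Aa of 1.06 (SE 0.44, edgeR adjusted p = 0.134). These values rested on D2-2: without it, Cd74 was at 0.05 and H2-Aa at -0.04 on the log2 scale. Between D2 and D0, edgeR and DESeq2 called 0 of the 9 genes. Over all 14310 genes, edgeR called 0%, and DESeq2 called 8 raised and 25 lowered. H2-DMa and H2-Oa were lower in D2 at an unadjusted p under 0.05 (edgeR).

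Dendritic cell-like cells were a larger share of the kept cells under PLX5622. They made up 0.375% (16 cells), 0.349% (9 cells) and 0.487% (18 cells) of the 3 Ctrl libraries, 1.35% (56 cells), 2.29% (114 cells) and 2.50% (66 cells) of the D0 libraries, 1.19% (47 cells) and 2.48% (60 cells) of D2-1 and D2-2, and 2.49% (45 cells) of D2-3. All D0 and D2 libraries lay above all Ctrl libraries. The mean share was 0.404% ± 0.0729 (SD, n = 3) in Ctrl and 2.05% ± 0.613 (SD, n = 3) in D0, and the log2 fold change of cell counts was 2.33 (SE 0.44, edgeR adjusted p = 0.00821 over 12 cell types). For D2 it was 2.17 (SE 0.47, edgeR adjusted p = 0.0168), and this call was lost without Ctrl-1, Ctrl-2 or D2-2 (1.55 without D2-2, edgeR adjusted p = 0.126). Exact permutation of the shares, two-sided, gave p = 0.1 for each, the smallest the design allows, and with the version of Cell Ranger as a term the edgeR adjusted p was 0.110 and 0.124. A share can rise because these cells increased or because microglia were lost, which cannot be told apart here. Other mean shares were higher in D0 as well. Neutrophil-like cells went from 1.54% ± 1.61 to 6.49% ± 3.96 (SD, n = 3 each), and endothelial-like cells from 1.70% ± 0.517 to 3.88% ± 1.66. Monocyte-like cells stood at 1.73% and 1.88%, and border-associated macrophage-like cells fell from 1.88% to 0.113%.

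Within dendritic cell-like cells, the class II genes themselves did not pass the test of any comparison. H2-Aa stood at 12381, 12885 and 14592 CPM of these cells in Ctrl, 12904, 14673 and 13658 in D0, 11009 and 12894 in D2, and 10641 in D2-3. Cd74 stood at 35772, 39057 and 43658 in Ctrl, 39904, 42251 and 38221 in D0, 30783 and 40012 in D2, and 31699 in D2-3. Ctrl overlapped D0 and D2 for both genes. D0 and D2 overlapped for Cd74, whereas for H2-Aa each D2 library lay below each D0 library, narrowly for D2-2 (12894 against 12904). Only D0 and D2 had 20 such cells per library, and with the limit lowered to 9 cells after the data were seen, edgeR called 0 of 9 genes in D0 (0.0191% of all genes called) and 0 in D2 (0.0383%) against Ctrl, with 1 (Ciita) and 2 (H2-Ab1 and H2-Eb1) lower at an unadjusted p under 0.05. DESeq2 was not run with this limit.

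For D0 against Ctrl in dendritic cell-like cells, the log2 fold change was 0.10 (SE 0.13) for H2-Aa and 0.07 (SE 0.13) for Cd74. Ciita was 0.68 lower on this scale (unadjusted p = 0.0127, edgeR adjusted p = 0.485), with 291, 294 and 164 CPM in Ctrl and 177, 134 and 134 in D0. In D2 against D0, the chains and Cd74 were lower by 0.28 to 0.35 on the log2 scale (edgeR adjusted p = 0.790). Of the 9 genes, edgeR and DESeq2 called 0, where edgeR called 0.0161% of 6203 genes changed and DESeq2 called 2 lowered. H2-Ab1, H2-Eb1 and H2-DMa had an unadjusted p under 0.05 in edgeR.

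**Figure D3:**
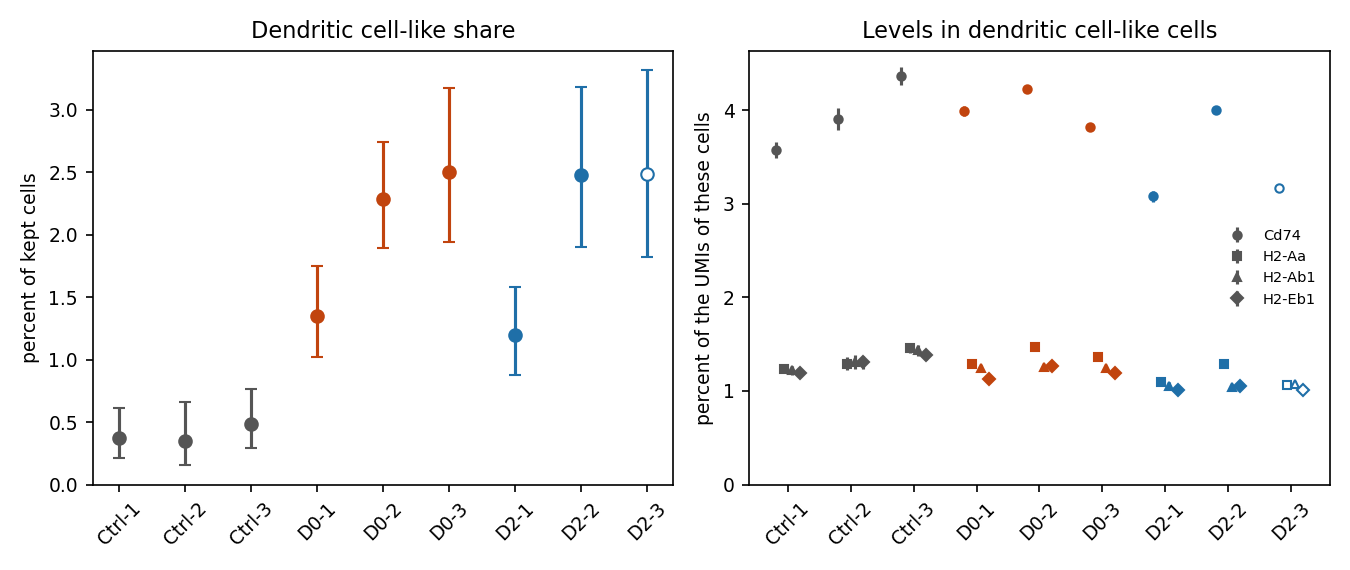
Left, dendritic cell-like cells as a percent of kept cells in each library, with exact 95% binomial intervals. Right, Cd74 (circles), H2-Aa (squares), H2-Ab1 (triangles) and H2-Eb1 (diamonds) as a percent of the UMIs of these cells, with 95% Poisson intervals, both for counting error only. Grey is Ctrl, orange D0, blue D2 and open blue D2-3. The shares of D0 and D2 (1.19 to 2.50%) lie above Ctrl (0.349 to 0.487%), while the levels of Ctrl and D0 overlap. H2-Ab1 and H2-Eb1 lie lower in D2 (means 10522 and 10340 CPM) than in D0 (12495 and 11946).

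How much of the rise came from dendritic cells and how much from microglia was read from an exact split. The summed CPM of the 9 genes in each D0 or D2 library, less the mean of the 3 Ctrl libraries (2124), were divided over cell types, and each type's part was divided into one from its share of UMIs and one from its level. The 9 genes summed to 3290, 3945 and 4856 CPM in D0-1, D0-2 and D0-3. The rise was thus 1166, 1821 and 2732 CPM, and all 3 D0 libraries lay above Ctrl.

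Dendritic cell-like cells contributed 1194, 1951 and 2426 CPM to these rises, a mean of 1857 ± 621 (SD, n = 3) or 97.4% of the mean rise of 1906. Of that mean, 1867 came from their larger share of the UMIs and -10.7 from their level. Microglia-like cells contributed 128, 210 and 70.0 CPM, a mean of 136 ± 70.6 (SD, n = 3) or 7.14% of the mean rise, as the sum of 184 from a higher level and -48.4 from a smaller share. Mixed clusters contributed 250, -123 and 257, and border-associated macrophage-like cells -313, -294 and -284, or -15.6% of the mean rise. The border-associated macrophage-like share of cells fell (log2 fold change -4.02, edgeR adjusted p = 0.00158), while their H2-Aa level was 2292, 4523 and 6075 CPM in D0 from 3 to 6 cells per library.

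In D2 the libraries differed from each other. The 9 genes summed to 2079 CPM in D2-1, a difference from Ctrl of -45.1, and to 5623 in D2-2, a rise of 3499. Dendritic cell-like cells contributed 578 and 2838, and microglia-like cells 7.75 and 150. Over both, the dendritic cell-like part was 98.9% and the microglia-like part 4.58% of the mean rise of 1727, of which D2-1 had none. In D2-3 the rise was 2004, with 2186 from dendritic cell-like, 919 from monocyte-like and -235 from microglia-like cells.

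The split differed between genes. Of the D0 rise in Cd74 (1019 CPM), 89.9% lay in dendritic cell-like and 12.4% in microglia-like cells, and of the rise in H2-Eb1 (239) 112.6% and -0.603%, the excess being offset mostly by border-associated macrophage-like cells. For H2-DMa, with a rise of 69.2 CPM, microglia-like cells contributed 50.3% and dendritic cell-like cells 43.1%. For H2-DMb1 the dendritic cell-like part (29.2) was offset by -36.1 in microglia-like cells, and the total changed by -5.86 CPM. For Ciita 92.0% of a rise of 2.95 lay in dendritic cell-like cells.

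Within microglia-like cells (1511 to 3787 per library), Cd74 rose in D0 and D2. It stood at 50.9, 82.9 and 72.8 CPM in Ctrl-1, Ctrl-2 and Ctrl-3, at 227, 284 and 178 in D0-1, D0-2 and D0-3, at 152 and 410 in D2-1 and D2-2, and at 102 in D2-3. All D0 and D2 libraries lay above all Ctrl libraries. The log2 fold change was 1.95 (SE 0.37, edgeR adjusted p = 0.00583) in D0 and 2.14 (SE 0.39, edgeR adjusted p = 0.00502) in D2.

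H2-Ab1, the I-A beta chain, rose beside it, from a lower level. It stood at 13.2, 24.2 and 19.5 CPM in Ctrl, 35.9, 45.9 and 26.8 in D0, 34.2 and 42.5 in D2, and 25.5 in D2-3, so that no D0 or D2 library overlapped Ctrl. The log2 fold change was 1.15 (SE 0.27, edgeR adjusted p = 0.0176) in D0 and 1.12 (SE 0.30, edgeR adjusted p = 0.0296) in D2. Its partner chain H2-Aa stood at 6.58, 19.9 and 13.6 in Ctrl, 15.2, 27.5 and 5.68 in D0, and 10.1 and 21.4 in D2. D2-3 held 22 H2-Aa UMIs beside 194 of H2-Ab1, and its H2-Aa level lay below each Ctrl library. H2-Aa groups overlapped (log2 fold change 0.50, SE 0.57, edgeR adjusted p = 0.568 in D0), as did H2-Eb1 (0.16, SE 0.60, edgeR adjusted p = 0.878). The lowest D0 value of both was in D0-3.

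H2-DMa rose in microglia-like cells of D0, with 190, 256 and 247 CPM in Ctrl and 283, 300 and 302 in D0 (log2 fold change 0.56, SE 0.15, edgeR adjusted p = 0.0284). In D2 it stood at 238 and 237, within the Ctrl range (0.14, SE 0.17, not called by edgeR). H2-DMb1 stood at 145, 172 and 154 in Ctrl, 122, 119 and 140 in D0, and 104 and 114 in D2, each D0 and D2 library below each Ctrl library, and did not pass the test (-0.10, edgeR adjusted p = 0.625 in D0; -0.42, edgeR adjusted p = 0.0770 in D2). The plain CPM and the fold changes differ because the scaling of the fit (TMM) added 0.21 to log2 fold changes in D0 and 0.11 in D2, and over all kept cells 0.13 and 0.03. H2-Oa (Ctrl 46.0 to 55.1, D0 52.9 to 54.9, D2 45.6 to 47.1) and H2-DMb2 (4.40 to 6.08, 4.61 to 5.86 and 3.46 to 3.52) were not called. Ciita had 6 UMIs in 8898 Ctrl, 17 in 8604 D0 and 10 in 4456 D2 microglia-like cells, under the filter on low counts.

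Thus, of the 8 genes tested, 3 were raised in D0, where 12.6% of 12428 genes were, and 2 in D2, where 10.8% were. Between D2 and D0, edgeR and DESeq2 called 0 of these 8 genes. Over all 12428 genes, edgeR called 0%, and DESeq2 called 11 raised and 17 lowered. H2-DMa, H2-DMb2 and H2-Oa were lower in D2 at an unadjusted p under 0.05 (edgeR). The replicate block gave the same 3 and 2 genes, where 1774 and 1453 of 12428 genes were called raised. Cd74 in D0 was called without any 1 of the 8 libraries, whereas H2-Ab1 was lost without Ctrl-3 or D0-2 and H2-DMa without Ctrl-3, D0-2 or D0-3. In D2, Cd74 was lost without D2-2 (log2 fold change 1.22, edgeR adjusted p = 0.0541) and H2-Ab1 without Ctrl-3, D2-1 or D2-2.

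**Figure D4:**
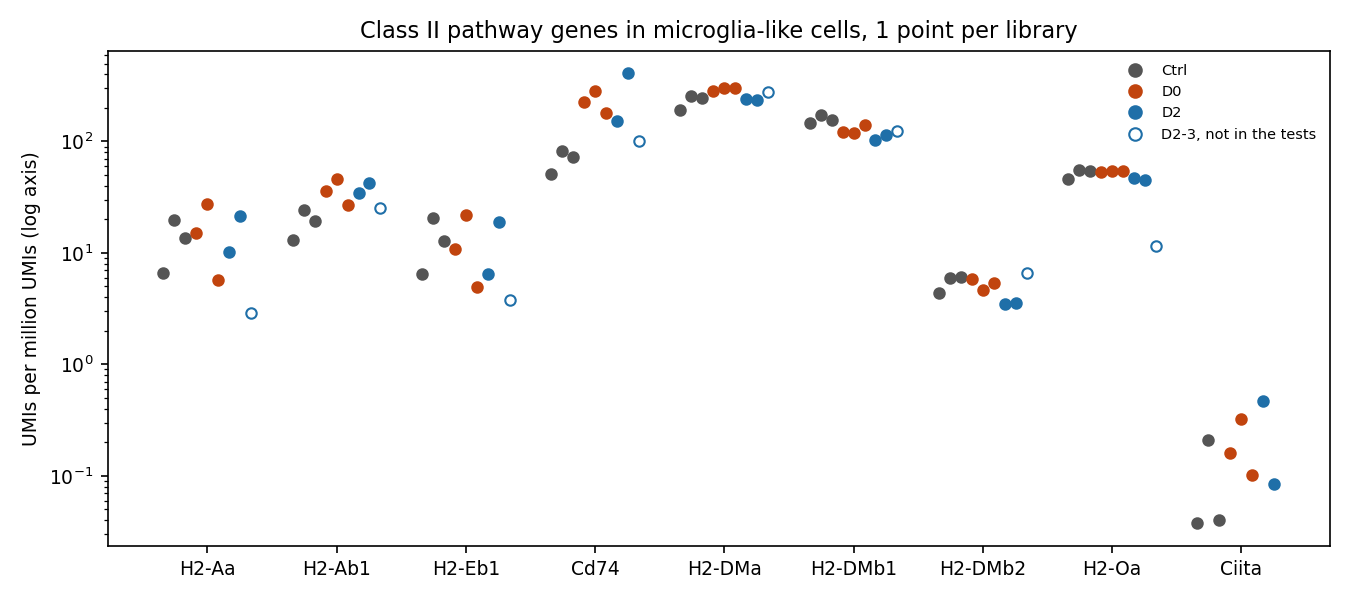
Each gene's CPM of microglia-like cells on a log axis, with 1 point per library in the order Ctrl-1 to Ctrl-3, D0-1 to D0-3, D2-1 to D2-3; grey is Ctrl, orange D0, blue D2 and open blue D2-3, and Ciita in D2-3 (0 UMIs) is not drawn. Cd74 (50.9 to 82.9 in Ctrl, 178 to 284 in D0) and H2-Ab1 separate Ctrl from D0 and D2, which overlap each other, and H2-Aa and H2-Eb1 do not. H2-DMa (higher in D0) and H2-DMb1 (lower in D0) separate Ctrl from D0. H2-Oa of D2-3 lies at 11.6.

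In monocyte-like cells 7 of the 9 genes passed the filter and edgeR called 0 in D0 and in D2 (0.282% and 0.334% of all genes raised), with 0 at an unadjusted p under 0.05. In neutrophil-like cells 1 was called: H2-DMa had a log2 fold change of -2.21 in D2 (SE 0.48, edgeR adjusted p = 0.0404, where 2.17% of all genes were called lowered). It stood there at 99.9 and 69.5 in Ctrl-2 and Ctrl-3 and at 23.8 and 8.18 in D2-1 and D2-2, from 8 to 39 UMIs per library. Of the 9 microglia markers, 6 reached 100 CPM in the neutrophil-like cluster of 735 cells and 2 in that of 440 cells. The part of microglial transcripts in this H2-DMa level was not tested.

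Markers of other cell types moved within microglia-like cells as well. The 13 dendritic cell markers summed to 71.5 to 81.8 CPM in Ctrl libraries, 103 to 129 in those of D0 and 101 to 121 in those of D2, with none at 0, and 3 of the 8 tested rose in D0 (Naaa, Plbd1 and Ccr7) and 1 fell (Itgae). The defining marker Cd209a stood at 0.301 to 0.740 in Ctrl, 0.153 to 0.786 in D0, and 0.465 and 1.26 in D2-1 and D2-2, and Clec10a at 0.113 to 0.423, 0.153 to 0.426, and 0.362 and 1.26. Ctrl and D0 overlapped for both markers and Itgae fell, so the higher dendritic cell marker sum of D0 was not a rise of every marker. D2-2 was the highest of the 8 libraries in both markers and in Plbd1 (6.95, next 2.22 in D0-2), but the lowest in Zbtb46 (0.503) and Wdfy4 (19.3). Each other dendritic cell marker was higher in another library than in D2-2, Flt3 only barely (0.672 in D2-1, 0.670 in D2-2). The 9 border-associated macrophage markers summed to 215 to 257 in Ctrl libraries, 118 to 152 in those of D0 and 123 to 126 in those of D2, with Lyve1 at 0 in D0 and D2 and Cd163 at 0 in D2. Of 8 tested, 1 rose (Folr2) and 4 fell in D0 (Cd163, Pf4, F13a1 and Stab1). Stab1 made up most of the border-associated macrophage sum, at 198 to 236 in Ctrl and 104 to 141 in D0. The 12 monocyte markers summed to 26.0 to 32.8 in Ctrl libraries, 32.3 to 43.5 in those of D0 and 47.6 to 58.4 in those of D2, with none at 0, and 5 of the 8 tested rose in D0 (Ly6c2, Ms4a4c, Plac8, Chil3 and Spn) and 1 fell (Ccr2). The part of the monocyte transcripts in the class II levels was not tested. When cells with 3 or more markers of either class were left out, an alternative chosen after the data were seen, Cd74 rose by 2.25 on the log2 scale in D0 (edgeR adjusted p = 0.000918) and by 2.43 in D2 (edgeR adjusted p = 0.000940), and H2-Ab1 by 1.32 in D0 (edgeR adjusted p = 0.00125). When every cell with a single UMI of any marker of another immune class was left out, 45 to 360 microglia-like cells per library remained. The lists held genes at clear levels in microglia-like cells, such as Ighm (176 to 309 CPM over the 8 libraries) and Stab1 (102 to 236). This filter therefore cannot tell transcripts of other cell types from those of the microglia-like cells themselves. Of the 9 genes, edgeR then called 0 in D0 and 0 in D2 (Cd74 0.83 in D0, edgeR adjusted p = 0.369), with 0 and 2 (Cd74 and H2-Ab1) at an unadjusted p under 0.05. Over all genes, 281 and 236 of 7244 were called raised.

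The values of the chains changed without the limit of 20000 UMIs per cell. Then H2-Aa was 2.05 (edgeR adjusted p = 0.0288) and H2-Eb1 2.29 (edgeR adjusted p = 0.0226) lower in D0 than in Ctrl on the log2 scale, H2-Ab1 was at -0.50 and Cd74 at 0.52 (edgeR adjusted p = 0.369 and 0.439), and H2-DMa kept its rise (0.60, edgeR adjusted p = 0.0198). The border-associated macrophage markers in the microglia-like cells then summed to 222 to 371 in Ctrl and 115 to 131 in D0, and their part in the result was not tested.

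A summed level does not tell more cells with a transcript from more transcripts per cell, so cells were thinned to 2000 UMIs each and counted. This left out 390 of 8898 Ctrl, 286 of 8604 D0 and 334 of 4456 D2 microglia-like cells, and 7 of 135, 171 of 795 and 48 of 245 neutrophil-like cells, which had fewer UMIs. A Cd74 UMI was found in 5.94, 5.74 and 5.81% of microglia-like cells of Ctrl-1, Ctrl-2 and Ctrl-3, in 19.8, 22.3 and 19.9% of D0-1, D0-2 and D0-3, in 16.4 and 30.5% of D2-1 and D2-2, and in 14.3% of D2-3. The difference between D0 and Ctrl was 14.8 percentage points (two-sided exact permutation p = 0.1, the smallest possible). Neutrophil-like cells, which should lack class II, had shares of 4.88 and 12.9% in Ctrl and 7.41 to 12.5% in D0, at medians of 3212 to 6154 UMIs against 5559 to 10668 in microglia-like cells before thinning. The Ctrl microglia-like shares lay within the Ctrl neutrophil-like range, which came from 2 libraries. How much of the Ctrl microglia-like share was background was not tested. The D0 shares exceeded the neutrophil-like share of the same library in 3 of 3 libraries, although in D0-1 the neutrophil-like interval (4.73 to 25.2%, 48 cells) covered it.

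**Figure D5:**
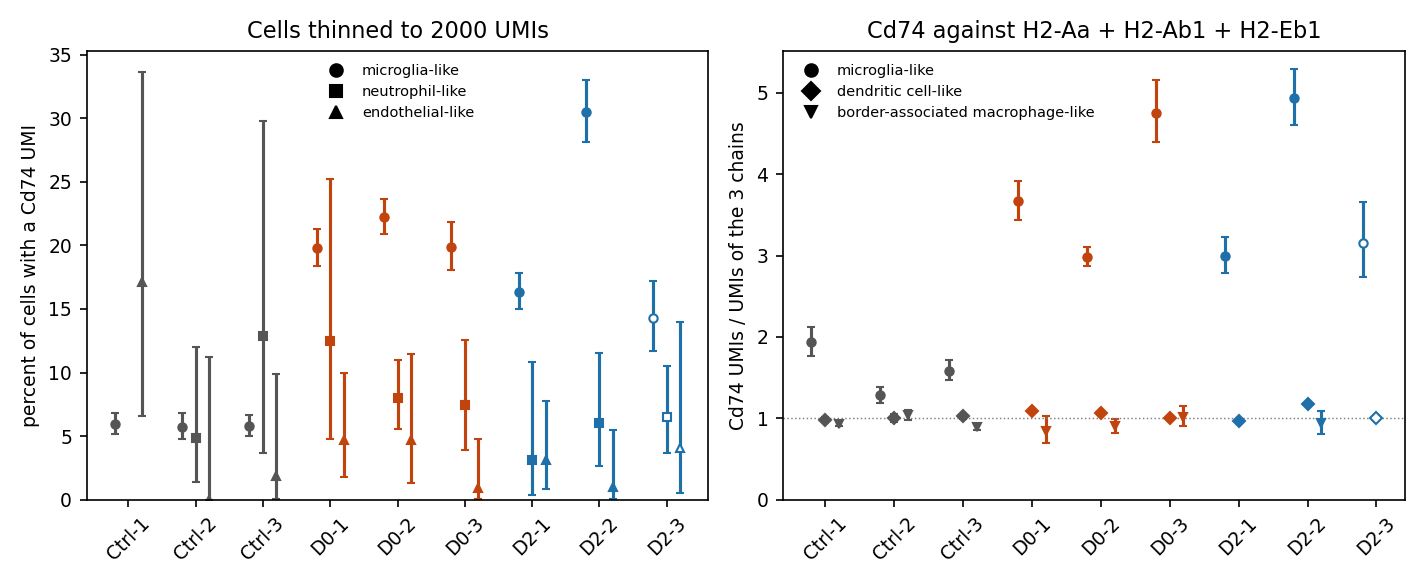
Left, percent of cells with a Cd74 UMI after thinning to 2000 UMIs, for microglia-like (circles), neutrophil-like (squares) and endothelial-like cells (triangles), with exact 95% binomial intervals. Right, Cd74 UMIs divided by the summed UMIs of the 3 chains in microglia-like (circles), dendritic cell-like (diamonds) and border-associated macrophage-like cells (triangles), with 95% intervals for counting error; grey is Ctrl, orange D0, blue D2 and open blue D2-3. Microglia-like shares go from 5.74 to 5.94% in Ctrl to 19.8 to 22.3% in D0, and the ratio from 1.28 to 1.94 to 2.99 to 4.76.

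H2-Ab1 was found in 2.31, 2.59 and 2.42% of thinned microglia-like cells in Ctrl, 5.03, 6.27 and 4.85% in D0, and 5.20 and 5.39% in D2. H2-Aa was found in 0.691 to 1.03% in Ctrl and 0.970 to 1.85% in D0, with ranges that overlapped. H2-DMa was found far more often, in 36.2% ± 5.03 (SD, n = 3) of Ctrl and 40.7% ± 1.66 (SD, n = 3) of D0 cells (exact permutation p = 0.2).

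A few cells held much of the class II signal counted in microglia-like cells. The 1% of microglia-like cells with the most Cd74 held 40.2, 70.0 and 66.2% of Cd74 UMIs in Ctrl, 30.2, 31.2 and 22.2% in D0, and 29.0 and 24.4% in D2. For the 3 chains together, the 1% of cells with the most chain UMIs held 28.7 to 79.9% in Ctrl and 20.6 to 56.8% in D0. Among these top cells for the chains, 3 or more border-associated macrophage markers were found in 0 of 35, 7 of 22 and 6 of 33 in Ctrl-1, Ctrl-2 and Ctrl-3 and in 1 of 31, 1 of 38 and 0 of 18 in D0. There, 3 or more dendritic cell markers were found in 0, 3 and 1 top cells in Ctrl and 1, 5 and 1 in D0. Among the top cells for Cd74, 3 or more dendritic cell markers were found in 0 of 35, 3 of 22 and 1 of 33 in Ctrl. They were found in 2 of 31, 3 of 38 and 2 of 18 in D0, and in 1 of 30 in D2-1 and 5 of 16 in D2-2. The part of these cells in the Cd74 levels was not tested. Before thinning, 81.1 to 85.6% of Ctrl and 47.7 to 62.3% of D0 microglia-like cells had no Cd74 UMI.

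Cd74 UMIs exceeded those of the 3 chains in microglia-like cells and were about equal to them in dendritic cell-like cells. The ratio of Cd74 UMIs to the UMIs of the 3 chains was 1.94, 1.28 and 1.59 in Ctrl, 3.67, 2.99 and 4.76 in D0, 3.00 and 4.93 in D2, and 3.16 in D2-3, and the D0 and D2 values did not overlap Ctrl. In dendritic cell-like cells the ratio was between 0.980 and 1.02 in Ctrl, between 1.01 and 1.09 in D0 and between 0.970 and 1.18 in D2. H2-Ab1 UMIs also exceeded H2-Aa UMIs in microglia-like cells, 1.22 to 2.01 times in Ctrl and 1.67 to 4.73 times in D0, with ranges that overlapped, compared with 0.855 to 1.02 times in dendritic cell-like cells of both groups.

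Microglia-like clusters differed in Cd74. In the cluster led by Cxcl13, Spp1 and Igf1, Cd74 stood at 312 to 756 CPM in D0 and 542 to 1033 in D2, and no Ctrl library held 20 such cells. In the cluster led by Ifit3 and Isg15, 2 D0 libraries stood at 380 and 1169 and D2 at 158 and 351, with 102 in 1 Ctrl library. In the cluster led by Il12b and Tnf, Cd74 stood at 211 and 763 in 2 Ctrl libraries and 538 to 660 in D0. In the cluster led by Slc2a5 and P2ry12, markers of resting microglia, it stood at 26.5 to 47.6 in Ctrl and 130 to 364 in D0. In each of the 7 clusters with 3 libraries in both groups, the mean Cd74 level was higher in D0 than in Ctrl.

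Across 63 sums of a cell type in a library (12 cell types, 8 libraries), the genes outside the 9 whose levels followed the summed chains most closely were Cd209a (Pearson r = 0.912 of log2 CPM plus 10), Clec4b1 (0.891), Clec10a (0.878), Tnip3 (0.855) and Mgl2 (0.854), mostly lectins of dendritic cells. Among the 9 genes, Ciita (0.898) and H2-DMb1 (0.891) were as close, and H2-Oa (0.620) was the least. Cd209a and Clec10a were also among the markers that named the dendritic cell-like cells. These sums share libraries and depth, and the values are descriptions.

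Other genes of the pathway were counted as a list. Of 27 genes listed (other class II genes and genes for promoter binding, interferon gamma signalling, antigen processing and co-stimulation), 23 were tested, and in microglia-like cells 2 rose and 1 fell in D0 and 3 rose and 1 fell in D2 (edgeR), where 12.6% and 10.8% of all genes were called raised and 7.64% in both were called lowered, with a median log2 fold change of 0.01 and 0.10 against -0.05 and -0.03 over all genes. Ifngr2, a chain of the interferon gamma receptor, rose by 0.41 in D0 (edgeR adjusted p = 0.0437) and by 0.57 in D2 (edgeR adjusted p = 0.0190). Ctsb, a lysosomal protease, rose by 0.66 in D2 (edgeR adjusted p = 0.0453), and Cd80, a co-stimulatory ligand, fell by 0.49 in D0 (edgeR adjusted p = 0.0309) and by 0.78 in D2 (edgeR adjusted p = 0.00776). None of the 7 promoter factors tested (Rfx5, Rfxap, Rfxank, Nfya, Nfyb, Nfyc and Creb1) was called. H2-Ob, the partner of H2-Oa, differed by 0.00 in D0 and -0.17 in D2 on the log2 scale. H2-Ea, H2-Ea-ps and Ifi30 were not analysed here.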

How the data were processed

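The authors aligned reads to mm10 and counted UMIs with Cell Ranger, and the deposited matrices hold raw counts per gene and cell. By the file headers the version was 3.0.2 in 6 libraries (Ctrl-1, all D0, D2-1, D2-2) and 3.1.0 in 3 (Ctrl-2, Ctrl-3, D2-3). The members and marker lists were chosen with earlier results of these data known, and the rules that name clusters were set after the clusters were seen. Libraries are separate brains or pools of brains, collected on the same day.

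The limits of the study were applied to barcodes: a total of 500 to 20000 UMIs, a minimum of 200 genes and a mitochondrial share of up to 10%. Levels are UMIs per 1000000 UMIs of the cells summed (CPM). Principal components (10) of 3000 variable genes without the class II genes were clustered (scanpy 1.11.5, 20 neighbours, Leiden resolution 0.6), and cells of D2-3 were placed by their 30 nearest neighbours. Scrublet called 46 cells, 0.161%, which is too few to be taken as working, so that no doublets were removed beyond the UMI limit.

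UMIs were summed per library and cell type (at least 20 cells) and tested with edgeR 4.0.16 (quasi-likelihood, TMM, all groups in one fit, Benjamini-Hochberg adjustment over all genes, threshold 0.05). Counts were also simulated with 100 genes changed 2-fold and 100 others changed 4-fold, all above a lower limit on mean CPM. In microglia-like cells of D0 against Ctrl, 81% and 100% of these were recovered (12283 genes, 22 false of 203 calls). The values were 66% and 98% in microglia-like cells of D2 (12305 genes). Over all kept cells they were 67% and 98% in D0 (14087 genes) and 43% and 93% in D2 (14080 genes). Recovery of the 9 genes themselves, at their own level and spread, was not tested. Cells per type were tested with edgeR over cell types, relative to the number of kept cells, and shares of cells also with exact permutation, two-sided, whose smallest p is 0.1. Intervals are exact 95% intervals and cover counting error only. In sums, fewer cells and less RNA per cell cannot be told apart. The replicate number was used as a block only in an alternative. Deviations of same-numbered microglia-like sums correlated at 0.406, 0.233 and 0.185 between Ctrl and D0, and at 0.0516 and 0.0859 between Ctrl and D2. The differently numbered Ctrl-3 and D0-2 correlated at 0.258, so these values do not show that replicate numbers paired the libraries. Named genes were the 9 members, the called genes of the pathway list (1 of which is not reported here) and the 5 genes most like the chains; other pathway and marker genes were named after their values were seen. Alternatives included DESeq2 1.42.0, leaving out each library and other clusterings.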

Additional observations from a re-analysis of the deposited data

Results flagged for a closer look

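D2-3, the library left out of the tests of the report, lay above the highest Ctrl library for some class II genes and not for others. In its microglia-like cells H2-Ab1 stood at 25.5 CPM (highest Ctrl 24.2), Cd74 at 102 (82.9), H2-DMa at 280 (256) and H2-DMb2 at 6.57 (6.08). The other genes did not exceed Ctrl there, and H2-Aa (22 UMIs), H2-Eb1 and H2-Oa lay below every Ctrl library. Dendritic cell-like cells were 2.49% of the kept cells of D2-3, against at most 0.487% in Ctrl.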

How the results depend on the processing

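Over all kept cells, the 1 gene of 9 called in D0 became 7 with DESeq2, 3 without a low-count filter, 5 with only the compared groups in the fit, 0 with D2-3 included, 2 without the upper UMI limit, 4 with cells thinned to 2000 UMIs and 0 to 5 without 1 library. With the replicate block, it became 2. Over all genes in D0, 1918 of 14310 were called raised with DESeq2, 1222 of 21324 without the filter and 1107 of 13574 with only the compared groups. These numbers were 357 of 13893 with D2-3, 1682 of 14938 without the upper UMI limit, 865 of 12456 after thinning and 1670 of 14310 with the block. Without 1 library they ranged from 545 of 14138 to 1269 of 14284. In D2, 0 became 3 with DESeq2, 1 after thinning and 0 to 5 without 1 library. Over all genes in D2, 758 of 12456 were called raised after thinning, and 562 of 14138 to 1120 of 14146 without 1 Ctrl or D0 library. In microglia-like cells, the 3 genes called in D0 became 1 with D2-3 included, 1 without the upper UMI limit, 1 with cells named by a marker rule per cell, 0 in cells without any UMI of another class's marker and 1 to 3 without 1 library. The 2 called in D2 became 1 with D2-3 included, at Leiden resolution 0.3 or without mitotic cells, 0 without the upper UMI limit or in cells without any UMI of another class's marker, and 0 to 2 without 1 library. Over all genes in microglia-like cells, 441 and 916 of 12211 were called raised in D0 and D2 with D2-3 included. Without the upper UMI limit the numbers were 1756 and 1362 of 13096, and with the marker rule per cell 544 and 497 of 11148. In D2, 1341 of 12476 were raised at resolution 0.3 and 774 of 12210 without mitotic cells. Without 1 library, 991 of 12367 to 1634 of 12387 were raised in D0. Without 1 Ctrl or D0 library, 948 of 12323 to 1688 of 12351 were raised in D2. Without the upper UMI limit, log2 fold changes in microglia-like cells were -2.05 and -2.47 for H2-Aa, -0.50 and -0.76 for H2-Ab1, -2.29 and -2.76 for H2-Eb1 and 0.52 and 0.61 for Cd74 in D0 and D2. The cause was not tested.

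Uncalled log2 fold changes, some near 0 and some well away from 0 as reported, also turned sign, without being called. Over all kept cells, thinning gave -0.012 for H2-DMb1 in D0 and, in D2, -0.065 for H2-DMa and 0.080 for H2-Oa, for which upper-quartile scaling gave 0.043 and the version term 0.14. In microglia-like cells of D0, H2-Aa and H2-Eb1 were at -0.31 and -0.58 at Leiden resolution 0.3 and at -0.20 and -0.22 in cells without any UMI of another class's marker, H2-Eb1 at -0.20 with all variable genes, -0.46 with 20 principal components and -0.43 without the top 4% of Scrublet scores, and H2-DMb1 at 0.092 with the version term and 0.0093 without mitotic cells. In D2, H2-Aa and H2-Eb1 were at -0.038 and -0.24 with D2-3, -0.21 and -0.51 with all variable genes and -0.075 and -0.20 in the cells without other markers. H2-Eb1 was at -0.24 with the replicate block, -0.17 at resolution 0.3, -0.044 with 20 principal components and -0.12 without top Scrublet scores, and H2-DMa at -0.049 thinned and -0.021 without other markers. H2-Oa was at 0.19 with the version term, 0.15 thinned, 0.23 with the marker rule per cell and 0.046 without mitotic cells. Without 1 library, the D2 values over all kept cells ranged from -0.038 to 1.70 for H2-Aa, -0.11 to 1.505 for H2-Eb1, -0.040 to 1.15 for H2-DMb2 and -0.087 to 0.040 for H2-Oa. In microglia-like cells they ranged from -0.20 to 0.92 for H2-Aa and -0.59 to 0.64 for H2-Eb1 in D0, and from -0.33 to 0.83 for H2-Aa, -0.96 to 0.69 for H2-Eb1 and -0.13 to 0.019 for H2-Oa in D2.

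For the dendritic cell-like share, the log2 fold change was 2.44 in D0 and 2.28 in D2 when Cell Ranger version was added to the fit (edgeR adjusted p = 0.110 and 0.124), 2.17 in D2 with only the compared groups (edgeR adjusted p = 0.0546), and 2.16 to 2.56 in D0 and 1.55 to 2.61 in D2 without 1 library. The exact permutation p was 0.1 for each. With the replicate block it was 2.27 and 2.23, and the block changed no other call over all kept, microglia-like and dendritic cell-like cells. Of the D0 rise, microglia-like cells carried -5.59% without the upper UMI limit, 2.34% with the marker rule per cell and 4.30 to 11.3% without 1 library. Of the D2 rise they carried -1.41% with D2-3 included, -9.78% without the upper UMI limit, -1.74% as a mean over cells and -17.2 to 7.0% without 1 library. The dendritic cell-like part was 86.7 to 105% in D0 and -1284 to 107% in D2 without 1 library, the lowest without D2-2, where the difference from Ctrl was -45.1 CPM. A fit of dendritic cell-like cells with the version as a term was not run, since the 5 tested libraries with 20 such cells all had version 3.0.2. Settings chosen after the data were seen were 20 principal components, the limit of 9 cells, leaving out microglia-like cells with 3 markers of another class, and dendritic cell-like with mixed clusters, which together carried 104% of the D0 rise and 109% of the D2 rise.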

Other observations

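In microglia-like cells of D2-3, H2-Oa stood at 11.6 CPM, compared with 45.6 to 55.1 in the other 8 libraries, and its partner H2-Ob at 5.26, compared with 18.5 to 27.0.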
